A study of Mus musculus with 72 samples.

Results

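The liver of DBA/2J males was compared with that of C57BL/6J males, both fed the Control diet, to ask how far the inherited background alone sets liver gene expression in male mice. The libraries were those whose titles end in Control, the strain and M, which gave 6 DBA/2J and 6 C57BL/6J libraries, 12 of the 72 in the series. Each library is labelled as a separate animal. The mice were 23 weeks old, had received the Control diet for 13 weeks from the age of 10 weeks, and were kept at about 22 °C. They were fasted for 16 h before the liver was taken, so all levels below are those of fasted liver, and no allele or agent other than the strain background separates the groups. The remaining 60 libraries are females of both strains and animals on Medium Protein or Low Protein diets, 6 in each of 10 groups, and they enter here only where the same strain difference is read in other animals.

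C57BL/6J and DBA/2J are inbred strains: all mice of a strain carry nearly the same genome, and the strains differ at many sites across it. Several loci with a known gene deletion, duplication or stop codon in one of them act as landmarks. Liver is made up mainly of hepatocytes, which secrete plasma proteins, handle lipids, glucose and amino acids in fasting, and clear foreign compounds. In mice many of these genes also differ between males and females. RNA was read as stranded libraries of polyadenylated RNA, and the deposited values are expected counts per gene, the number of reads that a model assigns to a gene when reads could come from several. Levels are given as CPM, a gene's count relative to its library's total, after scaling of the libraries by the trimmed mean of M values (TMM), as mean ± SD over the 6 animals of a strain or as lowest, median and highest animal. CPM is not divided by gene length, so levels of different genes are not set against each other. A log2 fold change is DBA/2J over C57BL/6J with its standard error (SE), and an adjusted p is from the edgeR quasi-likelihood test with Benjamini-Hochberg adjustment over all genes tested. A gene is called, or described as higher or lower, where that adjusted p was below 0.05.

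Total counts per library lay between 28.5 and 37.8 M in the 12 libraries compared, against 26.9 to 38.4 M over the series, and did not separate the strains. The share of counts on mt-Rnr1, the small mitochondrial ribosomal RNA, did: it ran from 3.36 to 4.98% with a median of 4.76% in C57BL/6J and from 2.06 to 2.66% with a median of 2.25% in DBA/2J (two-sided exact permutation test, p = 0.00216, the smallest that 924 regroupings allow, adjusted p = 0.0195 over 9 library properties). By the same test the share on mt-Rnr1 and mt-Rnr2 together did not pass (medians 20.8% in C57BL/6J and 19.0% in DBA/2J, adjusted p = 0.429). Nor did the share on all mitochondrially encoded genes (medians 22.9% and 20.4%, adjusted p = 0.401). The genes AY036118, Lars2 and CT010467.1, which hold ribosomal RNA-like sequence, took up to 34.9% of counts in C57BL/6J, highest in replicates 1 and 6, and up to 10.0% in DBA/2J, highest in replicate 4. Their part in the results was not tested, and results are also given without those 3 libraries. C57BL/6J replicate 6 stood apart in a second way, since it held low counts of genes that are almost silent in the other C57BL/6J animals. Among 52 genes called at least 32-fold higher in DBA/2J with a DBA/2J mean of 2 CPM or more, 47 had a count in some C57BL/6J library, and replicate 6 was the highest C57BL/6J library for 31 of them. Its level was a median of 2.51% of the DBA/2J mean, against 0.204 to 0.629% in the other 5. C1s2, for example, stood at 0.724 CPM in replicate 6 and at no more than 0.0714 CPM in the other 5, and at no more than 0.137 CPM in all other 35 C57BL/6J libraries of the series. Of the 12 named genes with the highest fold changes, replicate 6 was above all other 35 for 6. For the other 6 another C57BL/6J library of the series was higher, as for Nuggc (0.387 against 0.167 CPM) and Ccr3 (0.256 against 0.167 CPM). The cause was not tested. Fold changes of those 12 genes are therefore given with and without this library.

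Of 19362 genes tested 5905 (30.5%) were called, 2889 (14.9%) higher and 3016 (15.6%) lower in DBA/2J. The difference was at least 2-fold for 1905 genes, 999 higher and 906 lower, and at least 32-fold for 213. The 6 values of one strain did not overlap the 6 of the other for 3286 genes (17.0%), of which 3190 were called. The median log2 fold change over all genes tested was -0.0086, close to 0 after scaling. The first principal component of the 12 libraries, on log2 of CPM plus 1, held 58.1% of the variance and separated the strains without overlap. With 3 libraries left out, those high in AY036118, Lars2 and CT010467.1, 4778 genes were called. Scaling to library totals alone moved the median of all genes to 0.10 and the share of higher genes among the calls from 48.9 to 67.0%, so that the split into higher and lower depends on the scaling. Counts in the gene lists below are to be read against 14.9% higher and 15.6% lower. Reads over strain variants can align less well to a reference of the other strain, and the part of this in any single difference was not tested.

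**Figure D1:**
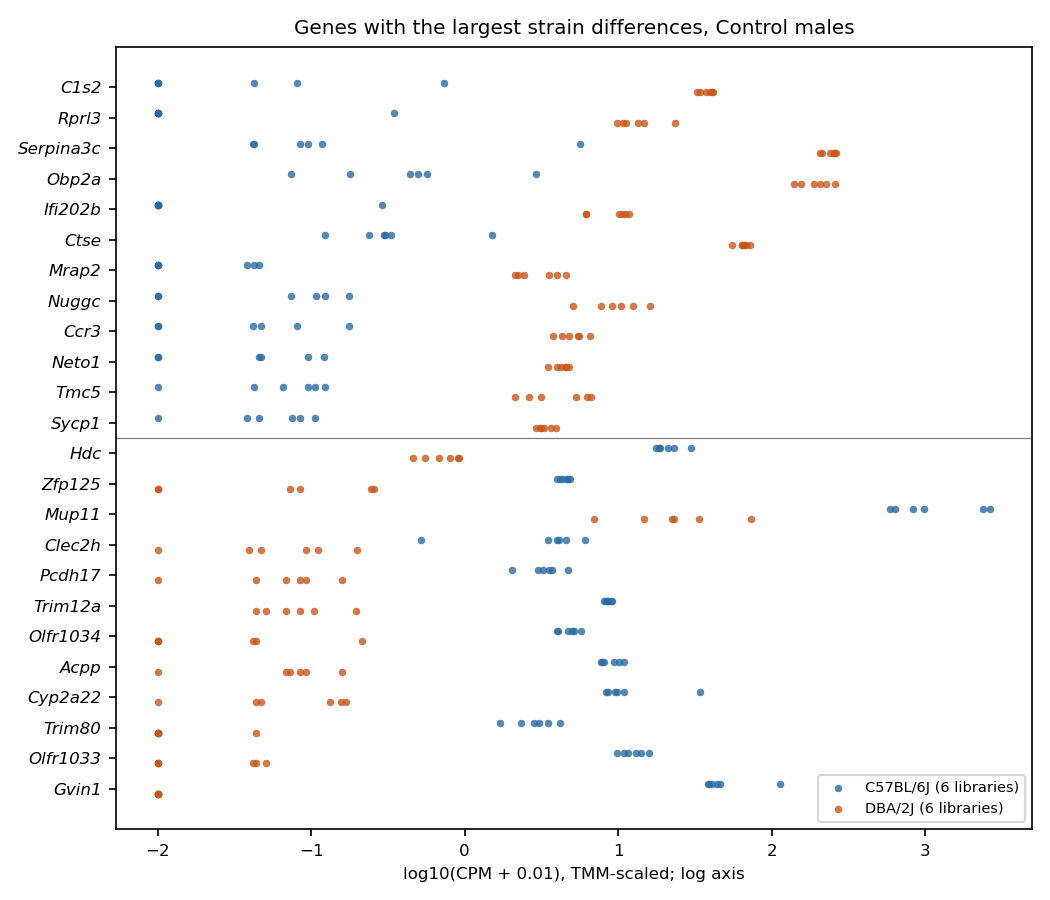
Level of 24 named genes in each of the 12 libraries (dots), as log10 of CPM plus 0.01 on the horizontal axis, for C57BL/6J (blue) and DBA/2J (orange); the 12 with the highest fold changes stand above the line and the 12 with the lowest below it. Dots at -2 are libraries with no count, and the single blue dot to the right of the others in C1s2, Rprl3, Serpina3c and Ifi202b is C57BL/6J replicate 6.

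The 12 named genes with the highest fold changes in DBA/2J each had a median of at most 0.459 CPM in C57BL/6J. C1s2, a rodent duplicate of the complement protease gene C1s, ran from 0 to 0.724 CPM (median 0.0163) in C57BL/6J and from 32.8 to 41.4 CPM (median 38.4) in DBA/2J. It was higher by a log2 fold change of 8.56 ± 0.29, adjusted p = 1.57e-35, and of 10.65 without C57BL/6J replicate 6. Serpina3c, a serine protease inhibitor, ran from 0.0319 to 5.62 CPM (median 0.0800) in C57BL/6J and from 207 to 261 CPM (median 246) in DBA/2J. Its log2 fold change was 8.31 ± 0.53, adjusted p = 2.78e-21, and 11.75 without replicate 6. Obp2a, a lipocalin of the odorant-binding family, ran from 0.0638 to 2.89 CPM (median 0.459) in C57BL/6J and from 140.2 to 259.9 CPM (median 197) in DBA/2J. The log2 fold change was 8.25 ± 0.58, adjusted p = 1.46e-18, and 9.20 without replicate 6. The 12 genes were named only from genes without overlap of the strains, so the separation of the animals follows from that choice. In C57BL/6J replicate 6 was the highest for each of these 3 genes.

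Ctse, the aspartic protease cathepsin E, ran from 0.112 to 1.5 CPM (median 0.290) in C57BL/6J and from 55.2 to 71.8 CPM (median 65.3) in DBA/2J, a log2 fold change of 7.35 ± 0.29, adjusted p = 5.07e-32 and of 8.01 without replicate 6. Ifi202b, an interferon-activated gene of the family that binds DNA in the cytosol, had no count in 5 C57BL/6J animals and 0.278 CPM in replicate 6, and 6.15 to 11.7 CPM with a median of 10.3 CPM in DBA/2J (8.11 ± 0.39, adjusted p = 5.91e-26). Rprl3, a gene for an RNA like that of ribonuclease P, likewise had no count in 5 C57BL/6J animals, 0.334 CPM in replicate 6 and 9.80 to 23.6 CPM with a median of 12.4 CPM in DBA/2J (8.45 ± 0.63, adjusted p = 8.16e-17). Without replicate 6 both are at 0 in C57BL/6J, and fitted fold changes of 11.24 and 11.82 then rest on the small count the fit adds. Nuggc, a nuclear GTPase of germinal centre B cells, ran from 0 to 0.167 CPM (median 0.0808) in C57BL/6J and from 5.07 to 16.0 CPM (median 9.78) in DBA/2J. For Nuggc the log2 fold change was 7.09 ± 0.47, adjusted p = 2.11e-20, and 7.35 without replicate 6. Ccr3, the eotaxin receptor of eosinophils, ran from 0 to 0.167 CPM (median 0.0347) in C57BL/6J and from 3.73 to 6.59 CPM (median 5.14) in DBA/2J. For Ccr3 the log2 fold change was 6.80 ± 0.44, adjusted p = 6.04e-21, and 7.40 without replicate 6. No immune cell type is read from these single genes, and the marker lists are given further down.

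The other 4 of the 12 were at a low level in DBA/2J too. Mrap2, an accessory protein of melanocortin receptors, stood at 0.0161 ± 0.0178 and 3.15 ± 1.02 CPM (7.20 ± 0.56, adjusted p = 1.85e-17, and 7.07 without replicate 6). Neto1, an auxiliary subunit of glutamate receptors, had 0.0449 ± 0.0452 and 4.26 ± 0.463 CPM (6.56 ± 0.47, adjusted p = 4.30e-19, and 6.87 without replicate 6). Tmc5, a transmembrane channel-like protein, had 0.0636 ± 0.0423 and 4.33 ± 1.95 CPM (5.98 ± 0.50, adjusted p = 3.79e-16, and 5.97 without replicate 6). Sycp1, a protein of the meiotic synaptonemal complex, had 0.05 ± 0.0350 and 3.32 ± 0.365 CPM (5.87 ± 0.27, adjusted p = 4.30e-28, and 5.73 without replicate 6). Replicate 6 was not the highest C57BL/6J library for Mrap2, Tmc5 or Sycp1, and for Neto1 it held 0.111 CPM against at most 0.0852 CPM in the other 5. The test of the difference between the sexes did not pass for any of these 12 genes (adjusted p from 0.147 to 1.000), and all 12 were called higher in each of the 5 other combinations of sex and diet.

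The 12 named genes with the lowest fold changes included Gvin1, 2 olfactory receptor genes, 2 Trim genes and 1 cytochrome P450 gene. Gvin1, a very large GTPase induced by interferon, ran from 38.2 to 113 CPM (median 42.4) in C57BL/6J and had no count in any DBA/2J animal, which makes it at least 3094-fold lower against 3 counts over the 6 libraries. The gene Gm4070, much of whose sequence is also found in Gvin1, stood at 23.0 CPM in C57BL/6J, against 85.2 CPM in DBA/2J, so that the 2 genes together had 76.5 and 85.2 CPM. Trim12a, a member of the Trim family of restriction factors, ran from 8.13 to 9.17 CPM (median 8.52) in C57BL/6J and from 0.0338 to 0.187 CPM (median 0.0664) in DBA/2J. For Trim12a the log2 fold change was -6.67 ± 0.32, adjusted p = 5.06e-27. Cyp2a22, a cytochrome P450, ran from 8.32 to 34 CPM (median 9.69) in C57BL/6J and from 0 to 0.158 CPM (median 0.0802) in DBA/2J. For Cyp2a22 the log2 fold change was -7.23 ± 0.76, adjusted p = 3.86e-12. Hdc, histidine decarboxylase, which makes histamine, ran from 17.8 to 29.8 CPM (median 19.9) in C57BL/6J and from 0.451 to 0.912 CPM (median 0.730) in DBA/2J. For Hdc the log2 fold change was -4.91 ± 0.37, adjusted p = 3.52e-18. The 12 genes were named only from genes without overlap of the 6 animals of each strain, so their lack of overlap is set by that choice.

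Olfr1033 and Olfr1034, olfactory receptor genes, stood at 12.5 ± 2.21 and 0.0177 ± 0.0197 CPM and at 4.75 ± 0.661 and 0.0451 ± 0.0800 CPM (-9.21 ± 0.43, adjusted p = 4.49e-24 and -6.74 ± 0.40, adjusted p = 1.07e-21, the latter -8.10 without DBA/2J replicate 4). Acpp, prostatic acid phosphatase, had 8.97 ± 1.32 and 0.0712 ± 0.0476 CPM (-6.94 ± 0.48, adjusted p = 1.40e-19). Trim80, a further Trim gene, had 2.92 ± 0.870 and 0.00563 ± 0.0138 CPM (-8.25 ± 0.61, adjusted p = 2.66e-16), with a count in 1 DBA/2J animal only, replicate 2, and -9.57 without it. Pcdh17, a protocadherin, had 3.35 ± 0.873 and 0.0663 ± 0.05 CPM (-5.63 ± 0.46, adjusted p = 1.72e-16). Clec2h, a C-type lectin, had 3.77 ± 1.82 and 0.0733 ± 0.0680 CPM (-5.58 ± 0.64, adjusted p = 6.41e-11), and Zfp125, a zinc finger protein, 4.44 ± 0.315 and 0.103 ± 0.111 CPM (-5.43 ± 0.36, adjusted p = 8.72e-21). The twelfth, Mup11, is described with the other urinary protein genes. It alone among these 12 passed the test of the difference between the sexes, with 0.09 in females (adjusted p of the difference 3.04e-05).

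Many of the largest differences were in pseudogenes, and for these and for gene copies the division of reads between near-identical sequences matters. Of the pseudogenes tested 24.4% were called at any size, against 30.5% of all genes. Pseudogenes made up 7.50% of the genes tested but 37.1% of the 213 called at least 32-fold (79), as many as protein-coding genes (79), which made up 73.5% of those tested. Of 105 called genes with no count at all in one strain, 41 were pseudogenes, 46 were silent in C57BL/6J and 59 in DBA/2J. For named genes, shared 31-base words were sought in the transcripts of the other tested genes. A tested gene was taken as a copy if at least 50% of the words in any of its transcripts occurred in the named gene. The share of the named gene's own words was not used, so a copy can be short. Gapdh, the glycolytic enzyme, stood at 654 CPM in C57BL/6J, against 301 CPM in DBA/2J, while its 15 copies together had 52.3 and 127 CPM, with 1 of them called higher and 8 lower. Rplp0, a ribosomal stalk protein, went from 221 to 85.9 CPM, and its copy Gm8730 from 0.553 to 49.8 CPM. Rpl21 went from 93.8 to 42.2 CPM and its 5 copies from 6.55 to 47.5 CPM, which left a sum of 100.4 CPM in C57BL/6J, against 89.6 CPM in DBA/2J. Rps2 (304 to 171 CPM, 9 copies 5.08 to 64.3 CPM), Rpl29 (60.9 to 14.9 CPM, 3 copies 0.490 to 18.5 CPM) and the enolase gene Eno1 (272 to 95.8 CPM, 2 copies 10.1 to 62.9 CPM) gave the same picture. In each of these 6 genes the copies together were higher in DBA/2J while the parent gene was lower, and the sum of gene and copies was lower in DBA/2J by less than the gene alone.

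**Figure D2:**
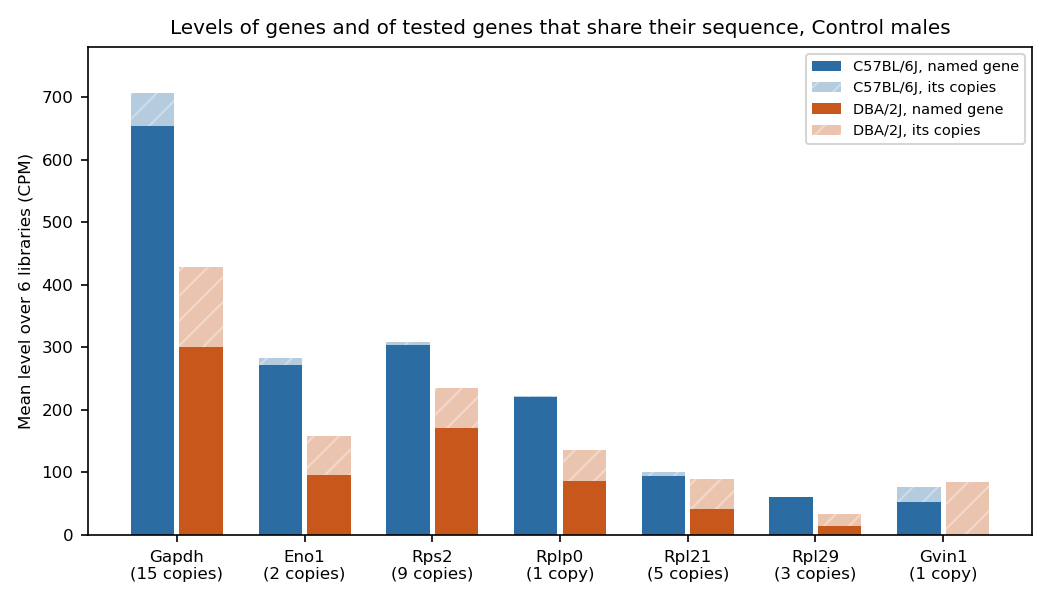
Mean CPM over 6 libraries of 7 genes (solid) and of their tested copies (hatched, stacked on top) in C57BL/6J (blue) and DBA/2J (orange). In Gapdh, Eno1, Rps2, Rplp0, Rpl21 and Rpl29 the solid part is smaller and the hatched part larger in DBA/2J, and in Gvin1 the whole DBA/2J bar is the copy Gm4070.

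Among genes with a known variant between the strains, 7 of 10 tested were called. Glo1, glyoxalase 1, which removes methylglyoxal and lies in a segment duplicated in DBA/2J, ran from 189.8 to 220.0 CPM (median 210.2) in C57BL/6J and from 361 to 456 CPM (median 406) in DBA/2J. For Glo1 the log2 fold change was 0.98 ± 0.12, adjusted p = 6.27e-10. Alad, the second enzyme of haem synthesis, also duplicated in DBA/2J, ran from 76.4 to 84.0 CPM (median 79.5) in C57BL/6J and from 134 to 213 CPM (median 167) in DBA/2J. For Alad the log2 fold change was 1.11 ± 0.12, adjusted p = 1.86e-11. Hc, complement component 5, which carries a frameshift in DBA/2J, ran from 726 to 1287 CPM (median 874) in C57BL/6J and from 285 to 364 CPM (median 311) in DBA/2J. For Hc the log2 fold change was -1.54 ± 0.12, adjusted p = 9.92e-18. Nnt, the mitochondrial transhydrogenase that lacks several exons in C57BL/6J, ran from 17.6 to 25.3 CPM (median 20.1) in C57BL/6J and from 24.1 to 46.9 CPM (median 37.7) in DBA/2J (0.78 ± 0.22, adjusted p = 0.0041) and its ranges overlapped. Counts over a whole gene also take in the exons that C57BL/6J keeps. H2-Ea-ps, the MHC class II E alpha gene whose promoter is deleted in the haplotype of C57BL/6J, had 0.0341 ± 0.0668 and 7.22 ± 3.74 CPM (8.03 ± 0.63, adjusted p = 6.29e-16, and 9.44 without C57BL/6J replicate 6). Klrd1, the natural killer receptor CD94 that DBA/2J lacks, had 0.178 ± 0.107 and 0.00563 ± 0.0138 CPM (-4.18 ± 0.91, adjusted p = 1.87e-04, and -5.50 without DBA/2J replicate 2, the only DBA/2J animal with a count). Ahr, the dioxin receptor, which has a low-affinity allele in DBA/2J, had 54.6 ± 10.1 and 38.6 ± 6.83 CPM (-0.50 ± 0.19, adjusted p = 0.0376), a call lost when C57BL/6J replicate 2, 4 or 5 or DBA/2J replicate 1, 4 or 6 was left out (adjusted p from 0.0587 to 0.103). Gpnmb (0.163 ± 0.110 and 0.0339 ± 0.0320 CPM, adjusted p = 0.139), Myo5a (1.43 ± 0.224 and 1.60 ± 0.543 CPM, 0.631) and Slc11a1 (5.10 ± 1.54 and 4.03 ± 0.529 CPM, 0.247) did not pass.

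The 3 tested genes on each side of these loci were taken from the RefSeq gene order. Beside Glo1, Btbd9 was higher by a log2 fold change of 0.28 ± 0.07, adjusted p = 6.61e-04 and Dnah8, an axonemal dynein, by 2.26 ± 0.31, adjusted p = 1.03e-08, while Zfand3 (-0.02), Ccdc167 (0.01), Abcg1 (0.12) and Tff3 did not pass. Beside Alad, Hdhd3 stood at 6.77 ± 1.27 and 19.8 ± 2.57 CPM (1.54 ± 0.16, adjusted p = 2.17e-12) and Bspry at 0.685 ± 0.328 and 1.95 ± 0.523 CPM (1.52 ± 0.30, adjusted p = 3.77e-05), both higher in DBA/2J, as was Zfp618 (0.90 ± 0.28, adjusted p = 0.00934), and Wdr31, Pole3 and Rgs3 did not pass. None of the 6 neighbours of Hc passed, and their log2 fold changes lay between -0.46 for Traf1 and 0.19 for Cntrl. Beside Nnt, Mrps30, a mitochondrial ribosomal protein, was higher (0.39 ± 0.09, adjusted p = 2.31e-04) and 4833420G17Rik lower (21.4 ± 1.15 and 7.42 ± 0.912 CPM, -1.53 ± 0.11, adjusted p = 1.28e-19). Of the other 4, 3110070M22Rik and Parp8 were lower with overlapping ranges, and Parp8 was no longer called without C57BL/6J replicate 1 or 6 or DBA/2J replicate 2, 3 or 6 (adjusted p from 0.0565 to 0.0698).

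Most interferon response genes were higher in DBA/2J. Interferons are antiviral signals that switch on genes with an interferon-stimulated response element (ISRE) in their promoter, and liver expresses many of them at a low resting level. Of 45 such genes tested 31 (background 14.9%) were higher and 1 lower in DBA/2J, 23 without overlap of the strains (17.0% over all genes), with 31 higher and 2 lower without the 3 libraries high in rRNA-like genes and a median log2 fold change of 0.74 against -0.0086 over all genes. Xaf1, a factor of interferon-driven cell death, ran from 3.72 to 5.14 CPM (median 4.50) in C57BL/6J and from 22.1 to 29.3 CPM (median 27.1) in DBA/2J. For Xaf1 the log2 fold change was 2.59 ± 0.16, adjusted p = 6.04e-22. Ifi27, a mitochondrial interferon-induced protein, ran from 27.9 to 47.7 CPM (median 32) in C57BL/6J and from 131 to 176 CPM (median 167) in DBA/2J. For Ifi27 the log2 fold change was 2.20 ± 0.18, adjusted p = 1.42e-16. Oas1a, which makes the 2-5A signal for RNase L on double-stranded RNA, ran from 1.91 to 3.22 CPM (median 2.41) in C57BL/6J and from 7.03 to 16.3 CPM (median 11.1) in DBA/2J. For Oas1a the log2 fold change was 2.29 ± 0.25, adjusted p = 7.63e-12. Isg15, the ubiquitin-like modifier, ran from 2.00 to 3.52 CPM (median 2.99) in C57BL/6J and from 6.38 to 11.7 CPM (median 8.16) in DBA/2J. For Isg15 the log2 fold change was 1.59 ± 0.25, adjusted p = 3.70e-07. Each DBA/2J animal lay above each C57BL/6J animal for these 4 genes.

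The effectors Ifit1 (15.1 ± 2.55 and 39.3 ± 8.98 CPM, 1.38 ± 0.25, adjusted p = 9.94e-06) and Ifit3b (3.83 ± 1.09 and 11.7 ± 2.49 CPM, 1.61 ± 0.25, adjusted p = 3.58e-07), which bind foreign RNA ends, and Rsad2 (16.7 ± 2.81 and 37.6 ± 7.36 CPM, 1.17 ± 0.20, adjusted p = 1.79e-06), or viperin, were higher as well. Ifit3b has a near-identical copy, Ifit3, so its own level is less certain. The signal proteins Irf7 (1.09 ± 0.20, adjusted p = 1.94e-05) and Ifi35 (0.97 ± 0.09, adjusted p = 1.17e-14) were higher too. Trim12a, given above, was the 1 member called lower, joined by a second without C57BL/6J replicate 6 or DBA/2J replicate 1. The immunity-related GTPase gene Irgm2 (75.9 ± 24.9 and 69.7 ± 17.5 CPM, adjusted p = 0.736) did not pass. C57BL/6J replicate 1 was the highest C57BL/6J library for 23 of the 45 members, with 125 CPM against at most 77.8 CPM in the other 5 for Irgm2, 35.2 against at most 10.2 CPM for Tgtp1 and 36.1 against at most 16.9 CPM for Gbp6. Without it 34 members were higher and 1 lower. DBA/2J replicate 1 was likewise the highest DBA/2J library for 24 of the 45, and without it 28 members were higher and 2 lower. In the 5 other combinations of sex and diet, which share no animal with these, 31 members were higher and 2 lower in Control females (over all genes 13.8% higher and 14.0% lower). The counts were 27 and 2 in Medium Protein males (13.8% and 15.0%), 37 and 2 in Low Protein males (17.9% and 17.3%), 39 and 2 in Medium Protein females (13.5% and 13.0%) and 38 and 2 in Low Protein females (16.3% and 16.8%). Macrophage and lymphocyte markers are given with the cell types below; the summed levels of those lists overlapped between the strains. In bulk liver, fewer cells of a type and less RNA per cell cannot be told apart.

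The 250 bases before the RefSeq start (GRCm38.p6, the C57BL/6J reference) of 3 of these genes and of Hmgcs1, which is described with cholesterol synthesis, are shown because members of both groups moved together. Capitals mark matches to the ISRE core GAAANNGAAA in the first 3 and to the sterol regulatory element core CACCCCAC in the fourth, on either strand; in Ifit3b the matches lie on the other strand, and in Oas1a and Isg15 matches overlap each other.
Oas1a (chr5:120907526-120907775, minus strand): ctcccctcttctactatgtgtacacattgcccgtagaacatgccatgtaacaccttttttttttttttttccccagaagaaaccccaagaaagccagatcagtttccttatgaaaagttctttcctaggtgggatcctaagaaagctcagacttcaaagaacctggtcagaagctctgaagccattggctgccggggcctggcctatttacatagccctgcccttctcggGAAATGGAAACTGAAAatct
Ifit3b (chr19:34607707-34607956, plus strand): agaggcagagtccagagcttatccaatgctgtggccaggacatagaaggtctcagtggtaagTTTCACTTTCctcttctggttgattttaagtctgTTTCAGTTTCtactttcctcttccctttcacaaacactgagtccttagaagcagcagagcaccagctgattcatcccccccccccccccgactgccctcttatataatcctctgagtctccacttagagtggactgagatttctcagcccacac
Isg15 (chr4:156200819-156201068, minus strand): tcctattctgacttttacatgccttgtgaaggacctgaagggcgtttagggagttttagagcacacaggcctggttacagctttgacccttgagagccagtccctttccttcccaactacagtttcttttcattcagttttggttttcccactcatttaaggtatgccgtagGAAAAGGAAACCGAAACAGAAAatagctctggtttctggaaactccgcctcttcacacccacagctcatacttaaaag
Hmgcs1 (chr13:119690101-119690350, plus strand): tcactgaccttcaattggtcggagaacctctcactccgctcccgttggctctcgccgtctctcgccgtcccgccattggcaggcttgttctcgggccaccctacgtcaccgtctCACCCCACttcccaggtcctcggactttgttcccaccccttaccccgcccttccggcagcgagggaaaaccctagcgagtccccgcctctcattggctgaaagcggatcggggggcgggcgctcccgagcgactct
The ISRE core occurs in 404 of 12023 tested genes with such a promoter (3.36%), in 19 of 34 interferon response members with one (55.9%) and in 9 of the 22 of those that were called (40.9%). The share with this core was thus lower among called members than among all members. The sterol core occurs in 412 of 12023 (3.43%), in 2 of 17 cholesterol synthesis members (11.8%) and in 1 of the 6 of those that were called (16.7%). A match is a description of these letters and not a measured site.

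**Figure D3:**
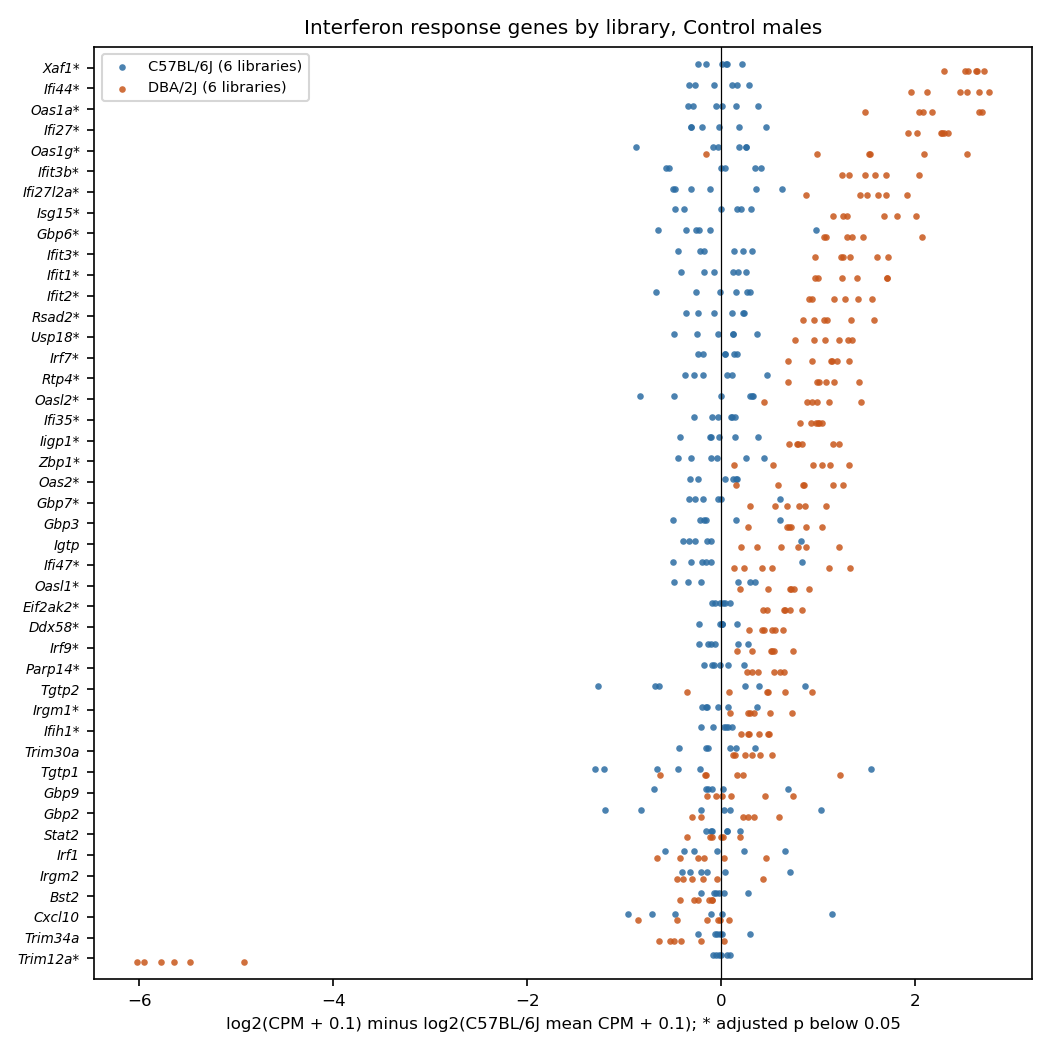
Level of 44 of the 45 interferon response genes in each of the 12 libraries, as log2 of CPM plus 0.1 minus the log2 of the C57BL/6J mean plus 0.1, with C57BL/6J in blue, DBA/2J in orange and an asterisk for an adjusted p below 0.05. Most orange dots lie to the right of the blue dots in the upper part, and Trim12a at the foot lies far to the left.

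Class I genes of the major histocompatibility complex, which present peptides to T cells and differ in haplotype between these strains, went both ways. Of 23 tested 9 were higher and 5 lower. H2-K1, a classical class I gene, ran from 542 to 757 CPM (median 616) in C57BL/6J and from 198 to 216 CPM (median 203) in DBA/2J. For H2-K1 the log2 fold change was -1.61 ± 0.10, adjusted p = 2.12e-22. H2-Q10, a secreted class I molecule made by liver, ran from 797 to 1040 CPM (median 869) in C57BL/6J and from 357 to 445 CPM (median 415) in DBA/2J. For H2-Q10 the log2 fold change was -1.15 ± 0.09, adjusted p = 1.13e-16. H2-Q2 (0.694 ± 0.397 and 9.32 ± 1.70 CPM, 3.78 ± 0.28, adjusted p = 4.01e-18) and H2-T24 (4.99 ± 0.610 and 20.3 ± 3.07 CPM, 2.03 ± 0.16, adjusted p = 5.96e-17) were higher. These genes are alike in sequence and differ between haplotypes, so the division of reads among them is uncertain. Of 11 class II genes, which mark antigen-presenting cells, 1 was higher, H2-Ea-ps, and 3 were lower, among them H2-DMb1 (2.56 ± 1.2 and 0.924 ± 0.490 CPM, -1.48 ± 0.34, adjusted p = 4.61e-04). Without the 3 libraries 1 was lower. The number lower was 5 without C57BL/6J replicate 2 or 4, 7 without DBA/2J replicate 1 and 1 without DBA/2J replicate 3.

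Complement genes changed singly and not as a group, with 7 of 32 higher and 8 lower (10 higher and 5 lower when scaled to library totals alone). C4a stood at 27.6 ± 17.5 and 557 ± 64.0 CPM (4.33 ± 0.32, adjusted p = 4.18e-18), while the near-identical C4b, the main liver C4 gene, stood at 1774 ± 365 and 1712 ± 209 CPM (adjusted p = 0.833). Their sum was 1802 CPM in C57BL/6J, against 2269 CPM in DBA/2J. C1rb, the duplicate of the protease gene C1ra, had 0.222 and 12.2 CPM, and C1ra 239 and 264 CPM. Besides Hc, the factor H-related gene Cfhr2 (317 ± 33.9 and 128 ± 8.26 CPM, -1.30 ± 0.09, adjusted p = 1.89e-20) and Masp2, a protease of the lectin pathway (187 ± 7.64 and 129 ± 8.19 CPM, -0.54 ± 0.05, adjusted p = 5.28e-14), were lower. Of 25 coagulation genes 3 were higher and 7 lower, which turned to 9 higher and 2 lower under library totals, and 6 were higher without C57BL/6J replicate 4. F11, coagulation factor XI, ran from 27.0 to 34.3 CPM (median 31.7) in C57BL/6J and from 71.7 to 93.4 CPM (median 84.0) in DBA/2J. For F11 the log2 fold change was 1.38 ± 0.18, adjusted p = 1.73e-09. Serpinc1, antithrombin, was lower (1418 ± 54.9 and 1121 ± 51.0 CPM, -0.34 ± 0.06, adjusted p = 3.11e-06), and the fibrinogen genes Fga (2925 ± 736 and 3679 ± 716 CPM) and Fgb (2582 ± 636 and 3306 ± 621 CPM) did not pass but were called higher without C57BL/6J replicate 4 (0.49, adjusted p = 0.0221, and 0.51, adjusted p = 0.0199).

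The Serpina family, liver protease inhibitors in a large cluster of mouse duplicates, was mostly higher in DBA/2J, with 14 of 22 genes tested higher and 3 lower (13 higher and 1 lower without the 3 libraries), and a median log2 fold change of 0.82. Serpina3m ran from 257 to 442 CPM (median 372) in C57BL/6J and from 1248 to 1623 CPM (median 1383) in DBA/2J. For Serpina3m the log2 fold change was 1.94 ± 0.18, adjusted p = 4.24e-14. Serpina11 ran from 33.5 to 43.0 CPM (median 37.1) in C57BL/6J and from 160.0 to 205 CPM (median 179) in DBA/2J. For Serpina11 the log2 fold change was 2.25 ± 0.16, adjusted p = 1.47e-19. Serpina3h, at a low level, had 0.179 ± 0.0576 and 3.27 ± 1.07 CPM (4.18 ± 0.32, adjusted p = 1.11e-17), and Serpina3c is given above. Serpina3n, the acute phase member, had 467 ± 243 and 467 ± 42.0 CPM (adjusted p = 1.000). Summed over the family the level ran from 21539 to 24945 CPM in C57BL/6J and from 31281 to 36401 CPM in DBA/2J, without overlap, which does not depend on how reads are divided between copies. Among 25 acute phase genes, which liver secretes in inflammation, 6 were higher and 4 lower, the latter 1 without C57BL/6J replicate 4 and 2 without DBA/2J replicate 2, 3 or 4. Apcs, serum amyloid P (48.5 ± 24.7 and 179.7 ± 62.7 CPM, 1.89 ± 0.33, adjusted p = 3.90e-06), and Mt1, a metallothionein (33.8 ± 29.9 and 144 ± 32.1 CPM, 2.09 ± 0.54, adjusted p = 0.00176), were higher, Crp, C-reactive protein (205 ± 14.1 and 150.1 ± 20.4 CPM, -0.45 ± 0.10, adjusted p = 2.28e-04), was lower, and the haptoglobin gene Hp (2044 ± 796 and 2104 ± 194 CPM, adjusted p = 0.919) did not pass.

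Major urinary protein (Mup) genes, which encode pheromone carriers that male liver secretes in large amounts, showed strain differences in both directions. Of 21 tested 10 were higher and 5 lower. Mup1 ran from 169.7 to 653 CPM (median 263) in C57BL/6J and from 10624 to 19840 CPM (median 17176) in DBA/2J. For Mup1 the log2 fold change was 5.52 ± 0.53, adjusted p = 1.21e-13. Mup11 ran from 594 to 2658 CPM (median 909.7) in C57BL/6J and from 6.99 to 73.7 CPM (median 22.7) in DBA/2J. For Mup11 the log2 fold change was -5.54 ± 0.72, adjusted p = 3.36e-09. Mup9 (477 ± 285 and 8718 ± 4251 CPM, 4.19 ± 0.49, adjusted p = 1.73e-10) and Mup10 (158 ± 49.1 and 663 ± 163 CPM, 2.07 ± 0.28, adjusted p = 7.47e-09) were higher, while Mup3 stood at 3323 ± 624 and 3317 ± 279 CPM (adjusted p = 0.996) and Mup7 at 6013 ± 3052 and 9642 ± 2417 CPM (adjusted p = 0.412). The members are near-identical copies, so the level of any one is uncertain. Mup1 and its 15 copies, all of them Mup genes, summed to 22341 CPM in C57BL/6J, against 54087 CPM in DBA/2J, and the list of 21 ran from 21464 to 43607 CPM in C57BL/6J and from 37117 to 75998 CPM in DBA/2J, with overlap.

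Genes known to be higher in male than in female liver were more often higher than lower in DBA/2J males, 20 of 38 against 4 lower (14 higher and 5 lower without the 3 libraries), with a median log2 fold change of 0.97. Several Mup genes are on this list. Selenbp2, a selenium-binding protein, ran from 12.6 to 103 CPM (median 26.7) in C57BL/6J and from 761 to 1183 CPM (median 1007) in DBA/2J (4.77 ± 0.53, adjusted p = 1.86e-11, and 5.43 without C57BL/6J replicate 2), while its copy Selenbp1 went from 203 to 124 CPM. Nudt7, a peroxisomal enzyme that breaks down coenzyme A, ran from 99.4 to 251 CPM (median 126) in C57BL/6J and from 480.1 to 613 CPM (median 567) in DBA/2J. For Nudt7 the log2 fold change was 1.95 ± 0.24, adjusted p = 3.73e-10. Of 39 female-biased genes 4 were higher and 12 lower. Ntrk2, the receptor TrkB, ran from 0.999 to 3.17 CPM (median 1.54) in C57BL/6J and from 55.5 to 96.0 CPM (median 65.6) in DBA/2J (5.36 ± 0.39, adjusted p = 1.72e-18), and Cyp2c40 ran from 1.21 to 11.6 CPM (median 3.15) in C57BL/6J and from 0.0748 to 0.369 CPM (median 0.275) in DBA/2J. For Cyp2c40 the log2 fold change was -4.13 ± 0.55, adjusted p = 7.14e-09, and -3.45 without C57BL/6J replicate 3. Tox, a nuclear DNA-binding protein, was lower (8.04 ± 1.69 and 2.42 ± 0.436 CPM, -1.73 ± 0.20, adjusted p = 5.73e-11). Igf1, the growth factor that growth hormone drives in liver, stood at 532 ± 54.9 and 567 ± 58.9 CPM (adjusted p = 0.562). In Control females 15 of the 38 male-biased genes were higher and 5 lower in DBA/2J. Of the 39 female-biased genes 12 were higher and 3 lower there, against 13.8% and 14.0% of all genes. The test of the difference between the sexes called 7 of the 38 and 15 of the 39, against 8.39% of all genes.

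Cytochrome P450 genes of the Cyp2 family, which oxidise steroids, fatty acids and drugs, were lower in DBA/2J more often than higher, 16 against 7 of 37 (9 higher and 11 lower under library totals). Cyp2c23, an arachidonic acid epoxygenase, ran from 124 to 201 CPM (median 149.6) in C57BL/6J and from 6.21 to 15.4 CPM (median 10.5) in DBA/2J. For Cyp2c23 the log2 fold change was -3.80 ± 0.23, adjusted p = 1.90e-22. Cyp2c68 (155 ± 21.6 and 50.3 ± 15.0 CPM, -1.63 ± 0.15, adjusted p = 4.87e-14) and Cyp2r1, the vitamin D 25-hydroxylase (8.03 ± 1.98 and 1.43 ± 0.311 CPM, -2.48 ± 0.22, adjusted p = 8.51e-15), were lower and Cyp2c39 was higher (3.56 ± 0.597 and 35.8 ± 28.7 CPM, 3.32 ± 0.35, adjusted p = 3.60e-12). Cyp2e1, which oxidises ethanol and acetone, stood at 7066 ± 311 and 6562 ± 777 CPM (adjusted p = 0.522). Of 19 Cyp3a and Cyp4 genes 3 were higher and 5 lower, and 5 higher and 4 lower when scaled to library totals. Cyp3a13 ran from 116 to 218 CPM (median 142) in C57BL/6J and from 15.8 to 25.1 CPM (median 18.4) in DBA/2J (-2.96 ± 0.17, adjusted p = 6.70e-23), and Cyp4a32, a fatty acid omega-hydroxylase, ran from 30.5 to 47.3 CPM (median 42.6) in C57BL/6J and from 326 to 544 CPM (median 476) in DBA/2J. For Cyp4a32 the log2 fold change was 3.47 ± 0.23, adjusted p = 3.46e-20. Cyp3a11, the main drug-metabolising member, was lower (1343 ± 253 and 599 ± 94.7 CPM, -1.17 ± 0.23, adjusted p = 3.23e-05), while Cyp4a10 (2181 ± 450.0 and 2261 ± 386 CPM) and Cyp4a14 (3219 ± 791 and 2478 ± 718 CPM) did not pass. Cyp2c and Cyp3a genes also have close copies.

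Xenobiotic receptors were lower or not called. Of 10 xenobiotic receptors and partners 6 were lower and 0 higher (0 higher and 3 lower under library totals), among them Por, the reductase that feeds electrons to P450 enzymes (374 ± 46.9 and 167 ± 50.3 CPM, -1.16 ± 0.19, adjusted p = 1.13e-06), Nr1i2, the receptor PXR (70.0 ± 12.1 and 47.2 ± 8.78 CPM, -0.57 ± 0.12, adjusted p = 1.19e-04), and Nr1i3, the receptor CAR (433 ± 49.7 and 296 ± 69.1 CPM, -0.55 ± 0.17, adjusted p = 0.00984). Hnf4a, the hepatocyte nuclear factor (537 ± 46.0 and 454 ± 73.6 CPM), and Ppara (240.4 ± 13.9 and 217 ± 28.4 CPM) did not pass. Of 10 Cyp1 and dioxin receptor target genes 6 were lower and 0 higher (0 higher and 3 lower under library totals, and 0 higher and 4 lower without the 3 libraries), with Nqo1, a quinone reductase, at 4.24 ± 0.853 and 1.99 ± 0.626 CPM (-1.08 ± 0.21, adjusted p = 2.33e-05) and Cyp1a2 at 223 ± 33.5 and 259.5 ± 47.5 CPM (adjusted p = 0.435). Of 32 NRF2 targets, the antioxidant response, 12 were lower and 2 higher, of which 1 was lost without C57BL/6J replicate 1, 3, 5 or 6 or DBA/2J replicate 2, 4 or 6. Without the 3 libraries 1 higher and 14 lower were called. Aox3, an aldehyde oxidase, ran from 401 to 759 CPM (median 518) in C57BL/6J and from 70.9 to 143 CPM (median 92.7) in DBA/2J (-2.42 ± 0.23, adjusted p = 4.01e-14), and Gclm, a subunit of glutathione synthesis, ran from 129 to 200.4 CPM (median 162) in C57BL/6J and from 75.3 to 118 CPM (median 83.2) in DBA/2J. For Gclm the log2 fold change was -0.90 ± 0.10, adjusted p = 7.32e-12. Me1, malic enzyme, which supplies NADPH, was lower (105 ± 28.7 and 33.6 ± 4.57 CPM, -1.65 ± 0.19, adjusted p = 7.23e-11), as was the carbonyl reductase Cbr1 (25.5 ± 3.96 and 12.2 ± 1.5 CPM, -1.06 ± 0.14, adjusted p = 7.13e-09), and catalase, Cat, stood at 2205 ± 115 and 2218 ± 161 CPM (adjusted p = 0.965).

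Conjugating enzymes and esterases moved in both directions. Of 32 sulfotransferases and glucuronosyltransferases 6 were higher and 8 lower. Ugt1a1, which conjugates bilirubin, ran from 463 to 652 CPM (median 552) in C57BL/6J and from 169 to 210.0 CPM (median 195) in DBA/2J (-1.51 ± 0.13, adjusted p = 4.49e-16), and Ugt1a9 ran from 40.5 to 66.9 CPM (median 56.2) in C57BL/6J and from 438 to 692 CPM (median 538) in DBA/2J. For Ugt1a9 the log2 fold change was 3.29 ± 0.27, adjusted p = 4.82e-16. The Ugt1a genes share their last exons, and Ugt1a9 with its 8 copies summed to 943 CPM in C57BL/6J, against 979 CPM in DBA/2J. Of 23 glutathione S-transferases (5 higher and 7 lower under library totals) 3 were higher, among them Gstp3 (5.18 ± 0.952 and 14.1 ± 2.19 CPM, 1.45 ± 0.18, adjusted p = 8.35e-10), and 8 lower, among them Gsta3 (685 ± 111 and 267 ± 162 CPM, -1.36 ± 0.26, adjusted p = 2.34e-05) and Gstt3 (46.5 ± 12.4 and 12.1 ± 3.44 CPM, -1.94 ± 0.29, adjusted p = 1.32e-07). Of 13 carboxylesterases 2 were higher and 4 lower (3 higher and 3 lower under library totals). Ces1b ran from 25.6 to 32.8 CPM (median 31.5) in C57BL/6J and from 228 to 337 CPM (median 269) in DBA/2J (3.15 ± 0.16, adjusted p = 1.07e-26), and Ces1c, a secreted plasma esterase, was lower (1596 ± 60.0 and 1169 ± 172 CPM, -0.45 ± 0.11, adjusted p = 7.23e-04).

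On the Control diet 12 of 25 cholesterol synthesis genes were lower in DBA/2J males, and 17 of them were higher in DBA/2J females. Their transcription factor SREBP2, the product of Srebf2, is released when sterols in the endoplasmic reticulum are low and switches on the pathway. In Control males 0 were higher, and the counts were 0 higher and 8 lower without the 3 libraries and 0 higher and 9 lower under library totals, with a median log2 fold change of -0.59. Srebf2 ran from 32.3 to 41.9 CPM (median 35.7) in C57BL/6J and from 12.6 to 23.0 CPM (median 18.7) in DBA/2J. For Srebf2 the log2 fold change was -0.98 ± 0.14, adjusted p = 2.40e-08. Hmgcs1, which makes HMG-CoA, ran from 155 to 426 CPM (median 266) in C57BL/6J and from 47.3 to 184 CPM (median 97.0) in DBA/2J. For Hmgcs1 the log2 fold change was -1.38 ± 0.35, adjusted p = 0.0015. Sc5d, a late desaturase, had 249 ± 56.1 and 167 ± 30.1 CPM (-0.58 ± 0.14, adjusted p = 0.00101). Insig1, which holds SREBP2 back (192 ± 48.2 and 137 ± 48.5 CPM), and the isomerase gene Ebp (101 ± 7.36 and 94.1 ± 5.36 CPM) did not pass. Of the 25 members 3 had no overlap between the strains, where 17.0% of all genes had none.

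In Control females 17 of the 25 were higher (background 13.8%) and 0 lower in DBA/2J, with a median log2 fold change of 0.71. The test of the difference between the sexes called 20 of the 25, all of them lower in the male than in the female comparison, with a median difference of -1.31, where 4.45% of all genes were called lower. Srebf2 differed by -1.55 (adjusted p = 1.39e-07). The summed level of the 25 genes ran from 2032 to 3328 CPM (median 2772) in C57BL/6J males and from 1144 to 2167 CPM (median 1642) in DBA/2J males. In females it ran from 971 to 1612 CPM (median 1228) in C57BL/6J and from 1125 to 2268 CPM (median 1581) in DBA/2J. C57BL/6J males thus had the highest median of the 4 groups, and their range overlapped that of every other group but C57BL/6J females. On the Medium Protein diet 2 of the 25 were lower in DBA/2J males and 0 higher, below the share over all genes there (15.0% lower and 13.8% higher). On Low Protein 1 was lower and 5 were higher, where 17.3% of all genes were lower and 17.9% higher.

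**Figure D4:**
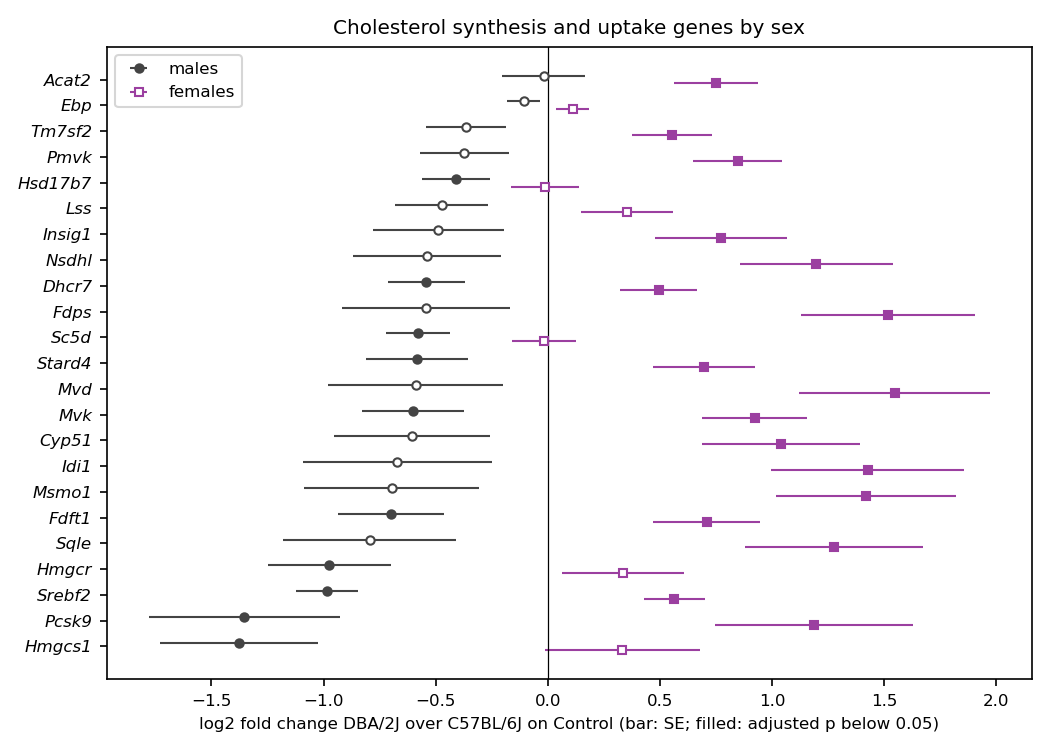
Log2 fold change of DBA/2J over C57BL/6J on Control for 23 of the 25 cholesterol synthesis and uptake genes in males (circles) and females (squares), with bars of 1 SE and filled symbols for an adjusted p below 0.05. Male values lie at or to the left of 0 and female values mostly to the right.

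Of 36 fatty acid and triglyceride synthesis genes 16 were lower in DBA/2J, 1 was higher and 19 were not called (1 higher and 15 lower without the 3 libraries, and 3 higher and 15 lower under library totals). Acaca, acetyl-CoA carboxylase, ran from 109 to 148 CPM (median 133) in C57BL/6J and from 54.2 to 83.1 CPM (median 63.4) in DBA/2J. For Acaca the log2 fold change was -0.98 ± 0.11, adjusted p = 1.24e-11. Fasn, fatty acid synthase, ran from 205 to 355 CPM (median 258) in C57BL/6J and from 70.2 to 140.3 CPM (median 106) in DBA/2J. For Fasn the log2 fold change was -1.31 ± 0.23, adjusted p = 3.68e-06. Lpin1, a phosphatidate phosphatase, ran from 37.7 to 196 CPM (median 84.6) in C57BL/6J and from 15.2 to 29.1 CPM (median 20.4) in DBA/2J. For Lpin1 the log2 fold change was -2.40 ± 0.43, adjusted p = 6.99e-06. The lipid droplet gene Plin2 (482 ± 51.4 and 624 ± 97.6 CPM) and the elongase gene Elovl2 (444 ± 66.4 and 556 ± 49.6 CPM) did not pass. The same list had 18 genes lower and 4 higher in Control females, where 14.0% of all genes were lower and 13.8% higher. Of 41 fatty acid oxidation genes and PPARA targets, which carry liver through a fast, 11 were higher and 7 lower, but 6 higher and 7 lower without the 3 libraries high in rRNA-like genes and 13 higher and 4 lower under library totals. The carnitine carrier gene Slc25a20 was lower (144 ± 10.7 and 103 ± 5.21 CPM, -0.48 ± 0.06, adjusted p = 1.15e-08). Bdh1, which makes the ketone body 3-hydroxybutyrate, ran from 166 to 183 CPM (median 175) in C57BL/6J and from 315 to 386 CPM (median 322) in DBA/2J. For Bdh1 the log2 fold change was 0.92 ± 0.15, adjusted p = 9.93e-07.

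Fgf21, a hormone that fasting and protein restriction raise in liver, was among the clearest differences in this list. It ran from 3.48 to 6.25 CPM (median 4.20) in C57BL/6J and from 15.0 to 71.5 CPM (median 39.2) in DBA/2J, without overlap (3.14 ± 0.43, adjusted p = 1.06e-08). The strain difference of Fgf21 was larger in males than in females, where it was 0.50 (adjusted p of the difference 0.00142), and it was 0.81 in Low Protein males (adjusted p of the difference 0.0105). Of 34 ATF4 targets, the genes of the amino acid stress response, 10 were higher and 2 lower, the latter 1 when any library but C57BL/6J replicate 3, 4 or 6 or DBA/2J replicate 2 was left out or under library totals. Among those higher were the tRNA synthetase genes Gars (26.7 ± 1.49 and 41.5 ± 5.80 CPM, 0.64 ± 0.08, adjusted p = 3.62e-10), Nars (50.1 ± 2.59 and 68.3 ± 6.49 CPM, 0.45 ± 0.06, adjusted p = 4.56e-08) and Sars (27.5 ± 1.73 and 37.8 ± 3.19 CPM, 0.46 ± 0.08, adjusted p = 2.32e-06), while Aars (152 ± 14.9 and 156 ± 12.1 CPM) and Cth, which makes cysteine (346 ± 73.6 and 278 ± 64.6 CPM), did not pass. Asns, asparagine synthetase, stood at 1.26 ± 0.929 and 0.618 ± 0.423 CPM (adjusted p = 0.251).

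Lipoprotein and bile acid genes were divided. Of 34 lipoprotein and cholesterol handling genes 8 were higher and 8 lower, and 5 were higher without C57BL/6J replicate 2 or DBA/2J replicate 3. Apoa4, an apolipoprotein of triglyceride-rich particles, ran from 163 to 632 CPM (median 351) in C57BL/6J and from 834 to 2570 CPM (median 1590) in DBA/2J. For Apoa4 the log2 fold change was 2.08 ± 0.39, adjusted p = 1.85e-05. Sort1, a sorting receptor that takes part in lipoprotein secretion, was higher (12.8 ± 2.66 and 28.2 ± 4.80 CPM, 1.14 ± 0.18, adjusted p = 3.77e-07), and Apom (105 ± 9.80 and 62.8 ± 12.5 CPM, -0.74 ± 0.11, adjusted p = 2.83e-07) and Lrp1, a receptor for remnant particles (2003 ± 285 and 1264 ± 88.1 CPM, -0.66 ± 0.11, adjusted p = 1.78e-06), were lower. The apolipoprotein genes Apob (17555 ± 556 and 17429 ± 593 CPM) and Apoe (6057 ± 308 and 5734 ± 362 CPM) did not pass. Of 30 bile acid genes 9 were higher and 10 lower (10 higher and 7 lower under library totals). Abcc2, the canalicular exporter MRP2, ran from 782 to 907 CPM (median 843) in C57BL/6J and from 335 to 458 CPM (median 428) in DBA/2J (-1.04 ± 0.08, adjusted p = 5.51e-17), and Cyp39a1, an oxysterol hydroxylase, ran from 9.59 to 23.6 CPM (median 17.8) in C57BL/6J and from 0.855 to 2.92 CPM (median 1.52) in DBA/2J. For Cyp39a1 the log2 fold change was -3.25 ± 0.33, adjusted p = 6.02e-13. The uptake carrier gene Slco1a4 was lower (99.8 ± 33.9 and 21.7 ± 7.38 CPM, -2.20 ± 0.28, adjusted p = 1.83e-09) and Scp2, which takes part in peroxisomal side-chain cleavage, was higher (2517 ± 203 and 3602 ± 51.4 CPM, 0.52 ± 0.08, adjusted p = 4.97e-07). Cyp7a1, which starts the main route from cholesterol to bile acids, ranged widely within both strains (170.4 ± 127 and 165 ± 95.6 CPM, adjusted p = 0.953), and Cyp8b1, which makes cholic acid, stood at 505 ± 97.6 and 493 ± 151 CPM (adjusted p = 0.932).

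Genes that make and genes that break down glucose were both more often lower in DBA/2J. Of 27 gluconeogenesis and glycogen genes 14 were lower and 1 higher (1 higher and 11 lower without the 3 libraries, and 1 higher and 9 lower under library totals). Fbp1, fructose bisphosphatase, ran from 519.7 to 748 CPM (median 591) in C57BL/6J and from 297 to 455 CPM (median 353) in DBA/2J. For Fbp1 the log2 fold change was -0.74 ± 0.12, adjusted p = 5.46e-07. Slc2a2, the glucose transporter GLUT2 (399.9 ± 45.9 and 229 ± 53.1 CPM, -0.80 ± 0.13, adjusted p = 9.36e-07), and Slc37a4, the glucose 6-phosphate carrier (121 ± 15.4 and 74.9 ± 17.2 CPM, -0.69 ± 0.15, adjusted p = 1.50e-04), were lower, and Pck1, the fasting-induced enzyme PEPCK, stood at 3904 ± 1153 and 2897 ± 759.8 CPM (adjusted p = 0.0892, but 0.0179 without C57BL/6J replicate 2 and 0.0457 without DBA/2J replicate 3). Of 27 glycolysis and pyruvate genes 13 were lower and 0 higher, among them Gapdh and Eno1. The summed level of their copies was higher in DBA/2J as given above, although 8 of the 15 copies of Gapdh were called lower. Gpi1, glucose phosphate isomerase (98.1 ± 6.90 and 65.4 ± 4.06 CPM, -0.58 ± 0.07, adjusted p = 6.81e-10), and Tkfc, a kinase of fructose breakdown (117 ± 31.9 and 55.5 ± 6.07 CPM, -1.08 ± 0.15, adjusted p = 4.62e-08), were lower, and Tpi1 (210.4 ± 18.0 and 208 ± 12.7 CPM) and Ldha (622 ± 121 and 687 ± 102 CPM) did not pass.

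Amino acid and one-carbon enzymes were more often lower. Of 62 amino acid catabolism genes 20 were lower and 5 higher, none of them by as much as 2-fold, and 3 were higher without DBA/2J replicate 5. The counts were 3 higher and 16 lower without the 3 libraries and 8 higher and 14 lower under library totals. Gcdh, of lysine and tryptophan breakdown, ran from 415 to 478 CPM (median 422) in C57BL/6J and from 212 to 315 CPM (median 246) in DBA/2J. For Gcdh the log2 fold change was -0.81 ± 0.09, adjusted p = 2.78e-11. Qdpr, which recycles the cofactor of phenylalanine hydroxylase (109 ± 6.63 and 66.1 ± 7.47 CPM, -0.73 ± 0.09, adjusted p = 2.20e-10), Ivd, of leucine breakdown (148 ± 8.82 and 87.7 ± 8.54 CPM, -0.75 ± 0.12, adjusted p = 3.08e-07), and Gpt, alanine transaminase (173 ± 19.4 and 101 ± 12.8 CPM, -0.78 ± 0.13, adjusted p = 1.59e-06), were lower, and Hpd (1398 ± 156 and 1423 ± 179 CPM) and Tdo2 (1228 ± 128 and 1052 ± 101 CPM) did not pass. Of 31 serine, methionine and one-carbon genes 13 were lower and 4 higher (4 higher and 7 lower under library totals). Nnmt, which spends methyl groups on nicotinamide, ran from 38 to 85.9 CPM (median 51.2) in C57BL/6J and from 1.09 to 4.90 CPM (median 2.01) in DBA/2J (-4.51 ± 0.56, adjusted p = 1.08e-09), and Gnmt, which spends them on glycine, ran from 648 to 808 CPM (median 701) in C57BL/6J and from 259.6 to 398 CPM (median 309.5) in DBA/2J. For Gnmt the log2 fold change was -1.15 ± 0.17, adjusted p = 9.89e-08. Bhmt, which remakes methionine from betaine, stood at 5243 ± 1240 and 6211 ± 1016 CPM (adjusted p = 0.485).

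Of 9 urea cycle genes, which turn ammonia from protein into urea, 4 were lower and 0 higher, and 2 were lower without C57BL/6J replicate 3 or DBA/2J replicate 4 or without the 3 libraries. Under library totals 1 higher and 2 lower were called. Asl ran from 346 to 676 CPM (median 422) in C57BL/6J and from 118 to 213 CPM (median 174) in DBA/2J (-1.40 ± 0.25, adjusted p = 5.39e-06), and Ass1 ran from 1257 to 1865 CPM (median 1391) in C57BL/6J and from 609.8 to 955 CPM (median 804) in DBA/2J. For Ass1 the log2 fold change was -0.90 ± 0.21, adjusted p = 5.31e-04. Cps1, the first enzyme of the cycle (4861 ± 978 and 3373 ± 496 CPM, -0.53 ± 0.18, adjusted p = 0.0177), and Arg1, the last (737 ± 123 and 528 ± 107 CPM, -0.48 ± 0.17, adjusted p = 0.0251), were lower with overlapping ranges. Neither was called without C57BL/6J replicate 3 (adjusted p = 0.0784 and 0.0801) or DBA/2J replicate 4 (0.054 and 0.0716), nor Arg1 without C57BL/6J replicate 5 (0.0538) or DBA/2J replicate 1 (0.0834). In Low Protein males 4 of the 9 were higher in DBA/2J and 0 lower (background 17.9%). Asl, Ass1, Cps1 and Arg1 were not among them and were not called there (log2 fold changes -0.06, 0.21, 0.28 and 0.27). The test of the difference between Low Protein and Control strain effects in males called 4 of the 9, all higher on Low Protein, where 1.97% of all genes were called higher. Asl and Ass1 were among those 4, and Cps1 and Arg1 were not. Over all genes the direction of this test depended on the scaling, with 107 higher and 888 lower under library totals. The urea cycle genes were not read in this test under that scaling.

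Iron and metal genes differed singly. Hamp2, a hepcidin gene beside the one that controls iron uptake, ran from 1.11 to 6.16 CPM (median 4.24) in C57BL/6J and from 105 to 167 CPM (median 136) in DBA/2J. For Hamp2 the log2 fold change was 5.09 ± 0.47, adjusted p = 2.90e-14. Of 32 genes on this list 8 were higher and 7 lower, the latter including Hfe, the haemochromatosis gene (31.8 ± 3.81 and 18.2 ± 1.77 CPM, -0.81 ± 0.09, adjusted p = 4.23e-12), and Steap2, a metal reductase (8.57 ± 1.36 and 2.79 ± 0.570 CPM, -1.61 ± 0.21, adjusted p = 3.99e-09), while the transferrin gene Trf (9997 ± 845 and 11781 ± 1488 CPM) and the ferritin gene Ftl1 (1311 ± 131 and 1172 ± 88.2 CPM) did not pass. Of 23 genes of folding in the endoplasmic reticulum 8 were higher and 2 lower (13 higher and 1 lower under library totals), with Pdia6 (85.4 ± 9.73 and 166 ± 11.6 CPM, 0.96 ± 0.17, adjusted p = 3.64e-06) and the chaperone gene Calr (321 ± 39.0 and 545 ± 27.8 CPM, 0.76 ± 0.18, adjusted p = 4.43e-04) higher, P4hb lower (995 ± 107 and 733 ± 49.8 CPM, -0.44 ± 0.07, adjusted p = 7.80e-07). The second gene called lower was lost in 9 of the 12 fits that left out a single library. Of 22 heat shock genes 1 was higher, Hspe1 (35.8 ± 2.82 and 49.3 ± 6.49 CPM, 0.46 ± 0.13, adjusted p = 0.00436), and 1 lower, the constitutive chaperone gene Hspa8 (1210 ± 104 and 671 ± 152 CPM, -0.85 ± 0.15, adjusted p = 8.46e-06). Of 21 clock genes 1 was higher and 5 lower, all with overlapping ranges, and 0 higher and 1 lower without the 3 libraries. The number lower was 3 without C57BL/6J replicate 6 or DBA/2J replicate 1 or 2, and the number higher 0 without C57BL/6J replicate 1, 5 or 6 or DBA/2J replicate 1, 2, 3 or 6. Usp2, a deubiquitinase with a daily rhythm, had 20.5 ± 6.54 and 6.37 ± 6.10 CPM (-1.67 ± 0.49, adjusted p = 0.00618, and -2.32 without DBA/2J replicate 5). The hour at which the animals were killed is not in the labels.

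Of 13 mitochondrially encoded mRNAs 10 were lower in DBA/2J and 0 higher (0 higher and 8 lower without the 3 libraries), with a median log2 fold change of -0.98, beside the lower share of mt-Rnr1 given above. The share of counts on all mitochondrially encoded genes, ribosomal RNA included, did not pass its test, as given above. mt-Nd4, a subunit of complex I, ran from 1610 to 2053 CPM (median 1800) in C57BL/6J and from 577 to 689 CPM (median 613) in DBA/2J. For mt-Nd4 the log2 fold change was -1.54 ± 0.13, adjusted p = 1.13e-15. mt-Cytb, of complex III, ran from 2118 to 2738 CPM (median 2384) in C57BL/6J and from 941 to 1241 CPM (median 1092) in DBA/2J. For mt-Cytb the log2 fold change was -1.14 ± 0.11, adjusted p = 1.96e-13. mt-Nd5 (1730 ± 163 and 633 ± 37.0 CPM, -1.45 ± 0.14, adjusted p = 1.95e-13) and mt-Nd2 (1204 ± 136 and 486 ± 78.1 CPM, -1.31 ± 0.15, adjusted p = 6.93e-11) were lower too, whereas mt-Atp6 (654 ± 205 and 615 ± 137 CPM) and mt-Co3 (351 ± 219 and 255 ± 128 CPM) did not pass. Nuclear genes of the respiratory chain differed little, with 8 of 76 lower and 3 higher (5 higher and 3 lower under library totals, and 1 higher and 8 lower without the 3 libraries), such as Atp5h (92.5 ± 3.51 and 67.3 ± 4.82 CPM, -0.46 ± 0.07, adjusted p = 8.79e-07), Sdhc (80.8 ± 5.16 and 61.0 ± 3.87 CPM, -0.40 ± 0.07, adjusted p = 3.18e-06) and Ndufa12 (16.1 ± 1.41 and 21.8 ± 1.2 CPM, 0.44 ± 0.08, adjusted p = 6.84e-06), none by 2-fold. Of 77 cytosolic ribosomal protein genes 14 were lower and 4 higher (9 higher and 9 lower under library totals, and 2 higher without DBA/2J replicate 3), and the 4 with the smallest p (Rpl29, Rpl21, Rplp0 and Rps2) are those given above whose copies together were higher in DBA/2J, while Rpl4 (269.6 ± 20.3 and 275 ± 14.9 CPM) and Rpl10 (263 ± 13.5 and 240.3 ± 17.9 CPM) did not pass.

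The summed level of cell type markers overlapped between the strains for 10 of 12 lists, the exceptions being cholangiocyte and pancreatic acinar markers. The hepatocyte marker albumin, Alb, stood at 48446 ± 5064 and 48000 ± 10119 CPM (adjusted p = 0.96), and of 15 hepatocyte markers 2 were higher, among them Fabp1, a fatty acid carrier (1619 ± 243 and 3240 ± 405 CPM, 1.00 ± 0.23, adjusted p = 3.99e-04), and 2 lower, among them Asgr1 (308 ± 27.8 and 207 ± 30.0 CPM, -0.58 ± 0.08, adjusted p = 5.06e-08). The hepatocyte markers summed to between 85952 and 99903 CPM in C57BL/6J and between 81098 and 107940 CPM in DBA/2J, so every library carried the defining genes of liver. Each hepatocyte count went to 1 without some single library, and 3 higher and 1 lower were called under library totals. Of 21 macrophage markers (2 higher and 1 lower under library totals) 1 was higher, in a call lost without C57BL/6J replicate 2 or 4 or DBA/2J replicate 1 or 4, and 1 lower, the folate receptor Folr2 (2.69 ± 1.07 and 0.319 ± 0.256 CPM, -3.09 ± 0.41, adjusted p = 8.29e-09), with summed levels of 378 to 572 CPM in C57BL/6J and 396 to 536 CPM in DBA/2J. Of 22 stellate cell and matrix markers 4 were higher, among them Reln (152 ± 24.8 and 233 ± 20.03 CPM, 0.61 ± 0.10, adjusted p = 2.48e-06) and Pdgfra (12.6 ± 1.63 and 20.6 ± 3.00 CPM, 0.71 ± 0.15, adjusted p = 1.21e-04), and 1 lower. Of 18 endothelial markers 4 were higher and 3 lower, counts that ran from 1 to 4 higher and from 2 to 4 lower with single libraries left out and were 1 higher and 2 lower without the 3, and Lyve1, a hyaluronan receptor, stood at 9.21 ± 3.93 and 3.27 ± 2.10 CPM (-1.48 ± 0.42, adjusted p = 0.00441). Lyve1 was not called without the 3 (-1.05, adjusted p = 0.102). Of 10 cholangiocyte markers 0 were higher and 1 lower, osteopontin, Spp1 (21.6 ± 1.99 and 8.95 ± 1.65 CPM, -1.27 ± 0.22, adjusted p = 3.54e-06). Their summed level ran from 37.4 to 46.1 CPM in C57BL/6J and from 22.4 to 33.0 CPM in DBA/2J, and 3 of the 10 members did not overlap (17.0% over all genes). The part of this in other results was not tested.

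Markers of T and NK cells, of B and plasma cells and of red blood cells were called in both directions. Of 19 T and NK cell markers 2 were higher, with Cd4 at 0.617 ± 0.159 and 2.09 ± 0.353 CPM (1.77 ± 0.25, adjusted p = 5.38e-08), and 4 lower, with Klrb1c at 0.257 ± 0.121 and 0.0163 ± 0.0181 CPM (-3.65 ± 0.71, adjusted p = 2.93e-05), and the summed level was 8.47 to 18.5 CPM in C57BL/6J and 9.65 to 15.6 CPM in DBA/2J. Of 16 B and plasma cell markers 1 was higher, Jchain (0.543 ± 0.208 and 1.35 ± 0.680 CPM, 1.30 ± 0.42, adjusted p = 0.0138, but 0.0814 without DBA/2J replicate 2), and 4 lower (2 higher and 2 lower without the 3 libraries), among them Cd22 (1.5 ± 0.877 and 0.457 ± 0.334 CPM, -1.69 ± 0.40, adjusted p = 6.22e-04), with sums of 8.16 to 30.1 and 7.50 to 32.8 CPM. None of 3 neutrophil markers tested passed, and 8 others, Ly6g and Mpo among them, were below the level for testing. The haemoglobin genes Hba-a2 (22.5 ± 6.30 and 3.28 ± 1.14 CPM, -2.78 ± 0.35, adjusted p = 1.14e-09) and Hba-a1 (22.3 ± 6.26 and 30.0 ± 8.45 CPM, adjusted p = 0.319) are copies whose sum was 44.8 CPM in C57BL/6J, against 33.3 CPM in DBA/2J, and Alas2, the red-cell haem synthase, was higher (52.9 ± 13.1 and 101 ± 15.7 CPM, 0.93 ± 0.15, adjusted p = 6.85e-07). Of 8 red blood cell markers 1 was higher and 2 lower (1 higher and 1 lower without the 3 libraries). Of 4 adipocyte markers tested 1 was higher, Fabp4 (2.83 ± 0.644 and 5.20 ± 1.26 CPM, 0.88 ± 0.29, adjusted p = 0.0141), and 1 lower, Cfd (0.438 ± 0.289 and 0.00563 ± 0.0138 CPM, -5.54 ± 1.59, adjusted p = 0.00501, and -6.86 without DBA/2J replicate 2). Both pancreatic acinar markers tested were called, with sums of 3.23 to 6.37 CPM in C57BL/6J and 14.1 to 24.8 CPM in DBA/2J, Cela1 higher (4.97 ± 1.29 and 18.7 ± 4.23 CPM, 1.90 ± 0.19, adjusted p = 5.65e-13) and Cela2a lower (15 counts over the C57BL/6J libraries and 0 over the DBA/2J ones), and the 1 skeletal muscle marker tested, Mylpf, stood at 0.216 ± 0.0875 and 0.171 ± 0.0746 CPM (adjusted p = 0.674).

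**Figure D5:**
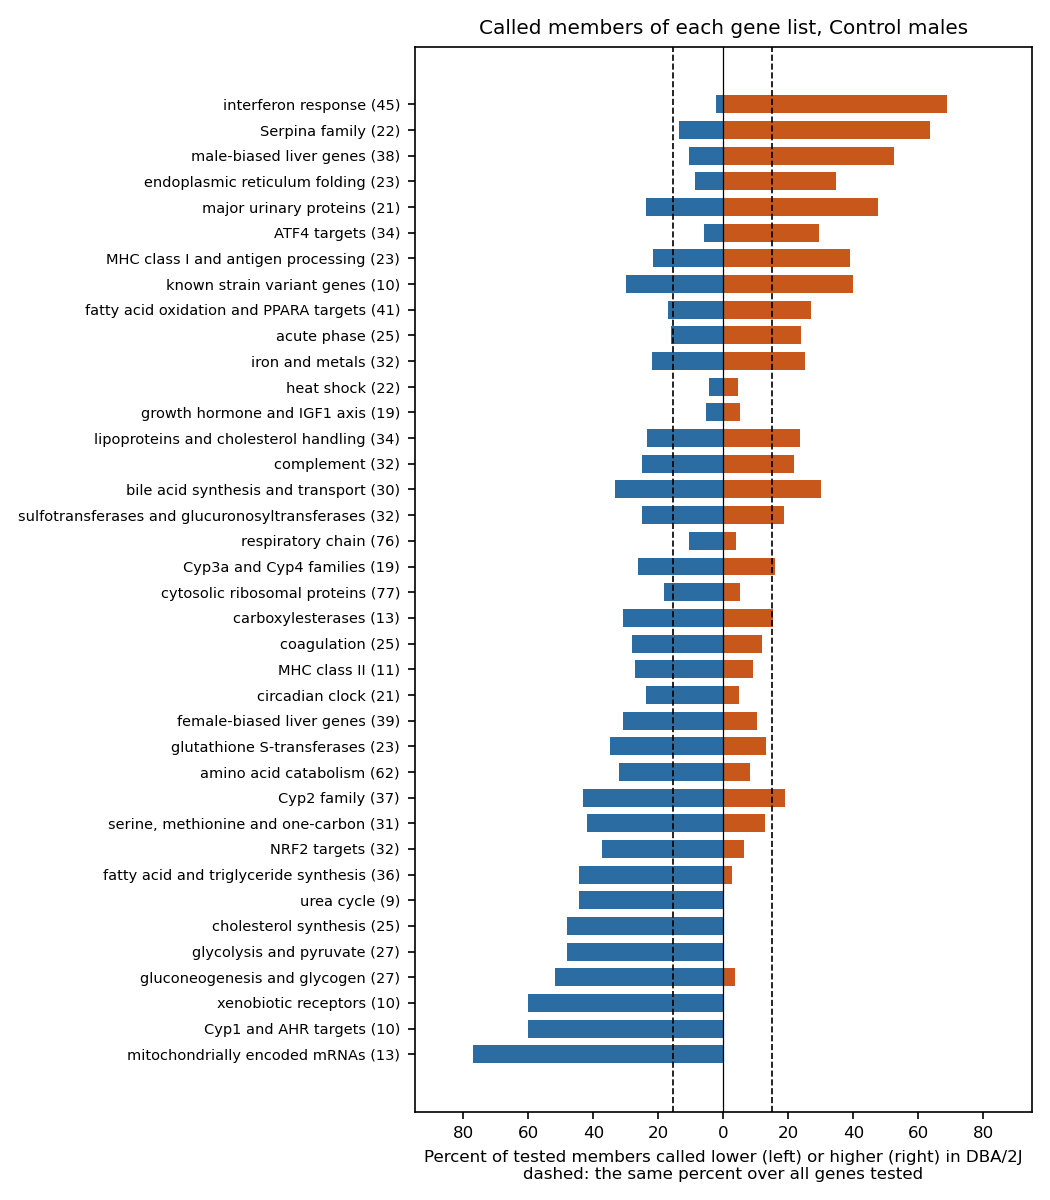
Percent of the tested members of each of 38 gene lists (number tested in brackets) called higher (orange, to the right) or lower (blue, to the left) in DBA/2J males on Control. Dashed lines mark the same percent over all genes tested, 14.9% higher and 15.6% lower, and lists are ordered by the balance of the 2 directions.

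The same strain difference was read in 5 further combinations of sex and diet, which share no animals with the Control males. The share of genes called was 27.8% in Control females, 28.8% in Medium Protein males, 35.2% in Low Protein males, 26.5% in Medium Protein females and 33.1% in Low Protein females. Of the 5905 calls in Control males, 3818 (64.7%) were also called with the same sign in Medium Protein males, where they made up 68.5% of the calls, and 8 with the opposite sign. In Low Protein males 3760 (63.7%, and 55.2% of the calls there) had the same sign and 51 the opposite. In Control females 2880 (48.8%, and 53.5% of the calls there) had the same sign and 147 the opposite. In all 6 combinations 1823 genes (30.9%) were called with 1 sign, and 4047 (68.5%) had 1 sign whether called or not, against 25.7% of genes not called in Control males. Every one of the 12 highest and 12 lowest genes above was called with the same sign in males on both other diets.

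The strain difference itself differed between males and females on Control for 1624 genes (8.39%), 762 with a higher and 862 with a lower value in males, and 1042 of them (17.6% of the 5905) were called in Control males. This test uses the Control males again, so that share is not independent of the calls. Cyp2c40, given above, was lower in DBA/2J males and stood at 1.41 in females (adjusted p of the difference 2.26e-08). Abcg2, an exporter of urate and drugs, had a log2 fold change of 0.36 ± 0.12, adjusted p = 0.0157 in males and of -1.11 in females (adjusted p of the difference 2.26e-08). The male call of Abcg2 was lost without the 3 libraries high in rRNA-like genes (0.25, adjusted p = 0.214). Ank2, a membrane adaptor, had 0.98 in males and -0.57 in females (2.12e-06), and Ndst1, of heparan sulfate synthesis, -0.36 and 0.39 (2.11e-06). Myo5b, a myosin motor of bile canaliculi, was 0.18 and 0.90 (1.39e-07). All but Myo5b of these 5 genes had opposite signs in the sexes, as had Srebf2.

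Between diets the strain difference of males changed less. On Low Protein against Control 558 genes (2.88%) were called, 382 with a higher and 176 with a lower value on Low Protein. Under library totals 995 were called, 107 higher and 888 lower, so that the split depends on the scaling. Dmgdh, which breaks down dimethylglycine, had 0.31 (not called without C57BL/6J replicate 4 or 6 or DBA/2J replicate 3 or 5) on Control and 1.42 on Low Protein (adjusted p of the difference 1.97e-05). App, the amyloid precursor protein, had 0.55 and -0.54 (4.47e-07), Sulf2, a heparan sulfatase, 0.28 and 2.14 (1.82e-05), P2ry4, a nucleotide receptor, -0.20 and 1.33 (7.82e-08), and Lrtm1 -1.33 and 2.50 (1.97e-05). On Medium Protein against Control 16 genes (0.0826%) were called, 4 higher and 12 lower, and 0 without the 3 libraries high in rRNA-like genes; 1568 genes had an unadjusted p below 0.05. Blnk, an adaptor of B cell receptor signalling, had 0.729 ± 0.197 and 3.93 ± 1.54 CPM on Control (2.43 ± 0.32, adjusted p = 4.03e-09) and 0.38 on Medium Protein (adjusted p of the difference 0.0335). Both of these tests use the Control males again, so their results are not independent of those above.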

How the data were processed

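Liver RNA was sequenced from 72 mice, and the deposited table gives RSEM expected counts per gene and library made by the authors. Per the submitters' processing notes RSEM, edgeR, limma and R 3.4.3 were used; the sources used here do not give the aligner, genome build or annotation. Per the labels' protocols the libraries were stranded, made from polyadenylated RNA and read in 2 lanes, which were merged. Symbols were matched for 51633 of its 51912 genes.

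The deposited expected counts were rounded to whole numbers (11.6% were not whole). Genes were filtered with filterByExpr over the 12 groups, scaled by TMM, and tested in 1 fit of 12 group means over all 72 libraries with the edgeR 4.0.16 quasi-likelihood test in R 4.3.3, with Benjamini-Hochberg adjustment over the 19362 genes tested. The fit was tested on simulated data. Replicates were numbered in accession order. Library properties were compared by an exact two-sided permutation test. Position codes in the labels run in group order, so column position and strain cannot be told apart.

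Named genes were, among called genes that averaged 0 or more on the log2 CPM scale and have a usual gene name, the 12 highest and 12 lowest fold changes without overlap, the 6 smallest p of each test of a difference between sexes or diets (not all are printed), up to 4 called members by p and 2 members not called by mean CPM of each list (some are left out), all known variant genes, the 3 tested neighbours on each side of 4 of them, and Fgf21, Igf1, Cyp7a1 and Asns. Oas1a, Ifit3b, Isg15, Ifit1, Rsad2, Irf7, Tgtp1, Gbp6, Hmgcs1, C1ra, C1rb, Selenbp1, Gm4070 and Gm8730 were chosen after their values were seen. Some genes that the rule names are not reported here. The members and lists were chosen with earlier results of these data known. Alternatives used RLE size factors, library totals, other filters, limma-voom (limma 3.58.1), a test against a fold of 1.2, DESeq2 1.42.0, fewer libraries, and a row-letter term.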

Additional observations from a re-analysis of the deposited data

Results flagged for a closer look

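Among the genes named above, 50 single libraries stood far from the other 5 of their group in 444 gene and strain groups and 8 groups of library properties, where chance gives about 1 in 20. The share of counts on AY036118, Lars2 and CT010467.1 stood out at 34.9% in C57BL/6J replicate 6 and at 10.0% in DBA/2J replicate 4, and the TMM factor at 0.618 in C57BL/6J replicate 6. C57BL/6J replicate 4 was above the others of its strain for Apcs (97.0 CPM), C4b (2468 CPM), Cyp2r1 (11.9 CPM), Cyp3a13 (218 CPM), Fga (4384 CPM), Fgb (3844 CPM), Hc (1287 CPM), Lrp1 (2562 CPM) and Serpina3n (933 CPM). C57BL/6J replicate 6 was above the others of its strain for C1s2 (0.724 CPM), Ctse (1.5 CPM), H2-Ea-ps (0.167 CPM), Ifi202b (0.278 CPM), Obp2a (2.89 CPM), Rprl3 (0.334 CPM) and Serpina3c (5.62 CPM). DBA/2J replicate 5 was above the others of its strain for Alas2 (131 CPM), Ebp (105 CPM), Gsta3 (583 CPM), P2ry4 (15.6 CPM) and Por (263 CPM). C57BL/6J replicate 3 was above the others of its strain for Asl (676 CPM), Bhmt (7614 CPM), Cth (493 CPM) and Cyp2c40 (11.6 CPM). DBA/2J replicate 2 was above the others of its strain for Cfd (0.0338 CPM), Jchain (2.67 CPM), Klrd1 (0.0338 CPM) and Trim80 (0.0338 CPM). C57BL/6J replicate 2 was above the others of its strain for Cyp7a1 (416 CPM), Gpnmb (0.375 CPM) and Selenbp2 (103 CPM). C57BL/6J replicate 1 was above the others of its strain for Gm4070 (53.2 CPM), Gvin1 (113 CPM) and Irgm2 (125 CPM). DBA/2J replicate 4 was above the others of its strain for Bdh1 (386 CPM) and Olfr1034 (0.205 CPM). C57BL/6J replicate 5 was above the others of its strain for Cyp2a22 (34 CPM) and Hba-a2 (34.8 CPM). C57BL/6J replicate 6 was below the others of its strain for Ndst1 (158 CPM) and Sdhc (71.1 CPM). DBA/2J replicate 1 was above the others of its strain for Rprl3 (23.6 CPM) and Serpina3h (5.33 CPM). C57BL/6J replicate 5 was below the others of its strain for Ccdc167 (4.27 CPM). C57BL/6J replicate 4 was below the others of its strain for H2-T24 (3.79 CPM). DBA/2J replicate 1 was below the others of its strain for Hpd (1065 CPM). DBA/2J replicate 5 was below the others of its strain for Plin2 (432 CPM).

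The test of such differences, run across all genes, called 87 differences of the strain effect between sexes or diets in the named genes. The strain log2 fold change was higher in males than in females by a difference of 2.67 for Blnk, 2.64 for Fgf21, 2.46 for Ntrk2, 2.41 for Apoa4, 1.55 for Ank2, 1.48 for Abcg2, 1.45 for Alas2, 1.38 for Fabp4, 1.25 for Mup10, 1.07 for Nudt7, 0.88 for Plin2 and 0.68 for Tdo2. Smaller differences were 0.63 for 4833420G17Rik, 0.57 for Ldha, 0.54 for Gars, 0.44 for Nars, 0.40 for Scp2, 0.37 for Tpi1, 0.37 for Ifi35 and 0.34 for Sars. The strain log2 fold change was lower in males than in females by a difference of -5.63 for Mup11, -5.54 for Cyp2c40, -2.59 for Mup1, -2.26 for Lrtm1, -1.80 for Cyp39a1, -1.71 for Hmgcs1, -1.62 for Cyp2c39, -1.55 for Srebf2, -1.44 for Gstt3, -1.44 for Gsta3, -1.37 for Slco1a4 and -1.29 for Cyp2r1. Smaller differences were -1.26 for Insig1, -1.23 for Cyp2c68, -1.22 for Fasn, -1.22 for Tox, -1.16 for Aox3, -1.15 for Cbr1, -0.95 for Cyp1a2, -0.92 for Ugt1a1, -0.88 for Lrp1, -0.80 for Me1, -0.74 for Ndst1 and -0.72 for Myo5b. Next came -0.70 for P2ry4, -0.67 for mt-Nd4, -0.53 for Qdpr, -0.50 for Apom, -0.48 for H2-Q10, -0.40 for Abcc2, -0.39 for Asgr1, -0.36 for Serpinc1 and -0.22 for Masp2. The strain log2 fold change was higher in males on Low Protein than on Control by a difference of 8.45 for Gvin1, 4.54 for Hamp2, 3.84 for Lrtm1, 2.06 for Ntrk2, 1.86 for Sulf2, 1.78 for Bhmt, 1.52 for P2ry4, 1.46 for Gstt3, 1.34 for Asl, 1.25 for Gnmt, 1.12 for Ass1 and 1.11 for Dmgdh. Smaller differences were 1.03 for Cth, 0.86 for Gpt, 0.84 for Srebf2, 0.78 for Hpd, 0.78 for Qdpr, 0.58 for Ivd, 0.57 for Lrp1, 0.50 for H2-K1, 0.49 for Ebp, 0.48 for Ndst1, 0.45 for Gcdh and 0.44 for H2-Q10. Next came 0.42 for Tpi1 and 0.28 for Serpinc1. The strain log2 fold change was lower in males on Low Protein than on Control by a difference of -4.18 for Asns, -2.33 for Fgf21, -1.69 for Ugt1a9, -1.48 for Blnk, -1.10 for App, -0.93 for Ifi27 and -0.42 for Nars. The strain log2 fold change was lower in males on Medium Protein than on Control by a difference of -2.05 for Blnk. Mup and Cyp2c genes among these have close copies, and the Gvin1 value rests on Control DBA/2J libraries with no count. The cause was not tested for any of these.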

How the results depend on the processing

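Of 222 named genes under 24 alternatives, no called direction was reversed. Leaving out 1 library at a time gave between 5419 and 5826 calls, and between 5216 and 5494 of the 5905 were among them. Without the 3 libraries high in rRNA-like genes, an alternative chosen after seeing the data, 4778 were called. A test against a fold of 1.2 called 3131 genes, 1515 higher and 1616 lower, which asks more of each gene by its construction; it called 363 differences between the sexes (160 and 203), 90 between Low Protein and Control (62 and 28) and 1 between Medium Protein and Control (0 and 1). Library totals without further scaling left 1973 genes lower in DBA/2J and 477 differences lower in males; for Low Protein they gave 995 differences (107 higher and 888 lower) and for Medium Protein 8, with 0 higher. Without a filter on low counts more genes were tested, and the calls for sex were 1080 (544 lower in males), for Low Protein 264 (189 and 75) and for Medium Protein 7 (0 and 7). With a row-letter term 4 genes (1 and 3) were called for Medium Protein, and without the 3 libraries 0 (0 and 0). DESeq2 called 298 genes lower on Low Protein than on Control and, for Medium Protein, 33 (11 and 22). For changes other than those of the fold test and of the filter the cause was not tested. No paired analysis was possible because replicate numbers follow accession order and pair no animals across strains. At this depth the floor of 3 counts over the 6 libraries was 0.0177 CPM in C57BL/6J, against 0.0173 CPM in DBA/2J. It served to bound the fold where a strain had no count. Means below it can still rest on a count, as for Trim80 in DBA/2J. The floors cover counting error only, while the SD and SE given above also include differences between animals. In simulated data for this comparison, with known folds put only into genes with high counts, 76% of 1.5-fold changes were called. The share for genes at low levels was not measured.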
